A study of Mus musculus with 10 samples.

Results

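The peptidylarginine deiminase genes *Padi1*, *Padi2*, *Padi3* and *Padi4* and the estrogen-regulated gene *Greb1* were followed in the uterus of pregnant mice with and without epithelial *Arid1a*. These 5 genes were picked by name from the 45706 Ensembl identifiers of the count table, and all 5 were among the 25146 genes tested, those averaging 1 count or more per library. Uteri were taken from intact adult females at gestation day (GD) 3.5, shortly before implantation. Control mice were *Arid1a* f/f, with both *Arid1a* alleles floxed and no Cre, and *Ltf* iCre/+ *Arid1a* f/f mice carried the same floxed alleles plus an improved Cre inserted in 1 copy of the lactoferrin gene *Ltf*, whose promoter is active in the endometrial epithelium of mature females. The latter are called knockouts below. The paper that reported these data also mentions reports of this Cre in neutrophils and other cells of the myeloid lineage. Loss of *Arid1a* in such cells was not tested here. Each genotype had 5 uteri, numbered 1 to 5, and the labels do not say that equal numbers link uteri of different genotype. The paper states that littermates were compared where possible, without saying which uteri these were. No mice with the Cre insertion and intact *Arid1a* were analysed here, so loss of *Arid1a* and the insertion itself cannot be told apart. Whole uterine tissue was sequenced, so that more cells of a type and more RNA per cell cannot be told apart either.

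Peptidylarginine deiminases are calcium-dependent enzymes that convert arginine residues of proteins to citrulline, which removes a positive charge. PADI1 and PADI3 are best known from skin and hair, where they modify keratins, filaggrin and trichohyalin, PADI2 is expressed widely, and PADI4 enters the nucleus, citrullinates histones and is needed for neutrophil extracellular traps. In the rodent uterus these enzymes are found in the epithelium and respond to estrogen. GREB1 is an early estrogen-induced protein and a cofactor of the estrogen receptor, and the progesterone of early pregnancy normally restrains the estrogen response of the epithelium.

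Libraries held between 59296537 and 72702411 counts, and levels are in CPM, the counts of a gene divided by the TMM-scaled total of its library, set to the same scale in all uteri. *Arid1a* stood at 213 ± 22.9 CPM in controls and 185 ± 15.9 CPM in knockout uteri (SD, n = 5 each), and 4 of 5 knockout uteri lay below every control. It changed by -0.20 on the log2 scale (adjusted p = 0.201 with edgeR's quasi-likelihood test). *Ltf*, the Cre-carrying locus, ranged from 2.22 to 11.7 CPM in controls and from 23.6 to 2831 CPM in knockout uteri. Knockout uteri 1 and 5 recur below as the highest in several genes, and fold changes are therefore also given without both, an alternative chosen after seeing the data.

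Among the 5 genes *Padi4* alone differed between genotypes after adjustment over all genes, and it rose. For comparison, 9.7% of all tested genes passed the same threshold (adjusted p under 0.05), 5.19% as higher and 4.51% as lower in knockouts. *Padi4* (ENSMUSG00000025330) lies on the minus strand of chromosome 4 (GRCm38, chr4:140745865-140774236). In control uteri 1 to 5 it stood at 7.37, 7.0, 8.55, 8.63 and 9.16 CPM. In knockout uteri 1 to 5 it stood at 59.8, 25.9, 20.3, 23.5 and 30.3 CPM. Every knockout uterus was above every control, a separation that 5.53% of all tested genes showed in this direction and 5.16% in the other, and controls differed little among themselves while knockout uterus 1 was far above the other 4. The means were 8.14 ± 0.915 and 32.0 ± 16.0 CPM (SD, n = 5 each), which is 3.92-fold. On the log2 scale the change was 1.97 (SE 0.27, 95% interval 1.39 to 2.56, adjusted p = 0.00202 with edgeR), and the two-sided exact permutation test gave p = 0.00794, the smallest that 5 uteri against 5 allow. When uteri were left out singly the log2 fold change ranged from 1.61 to 2.10, the adjusted p of edgeR stayed between 0.000461 and 0.00932, and without knockout uteri 1 and 5 the log2 fold change was 1.51 (adjusted p = 0.000139).

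**Figure D1:**
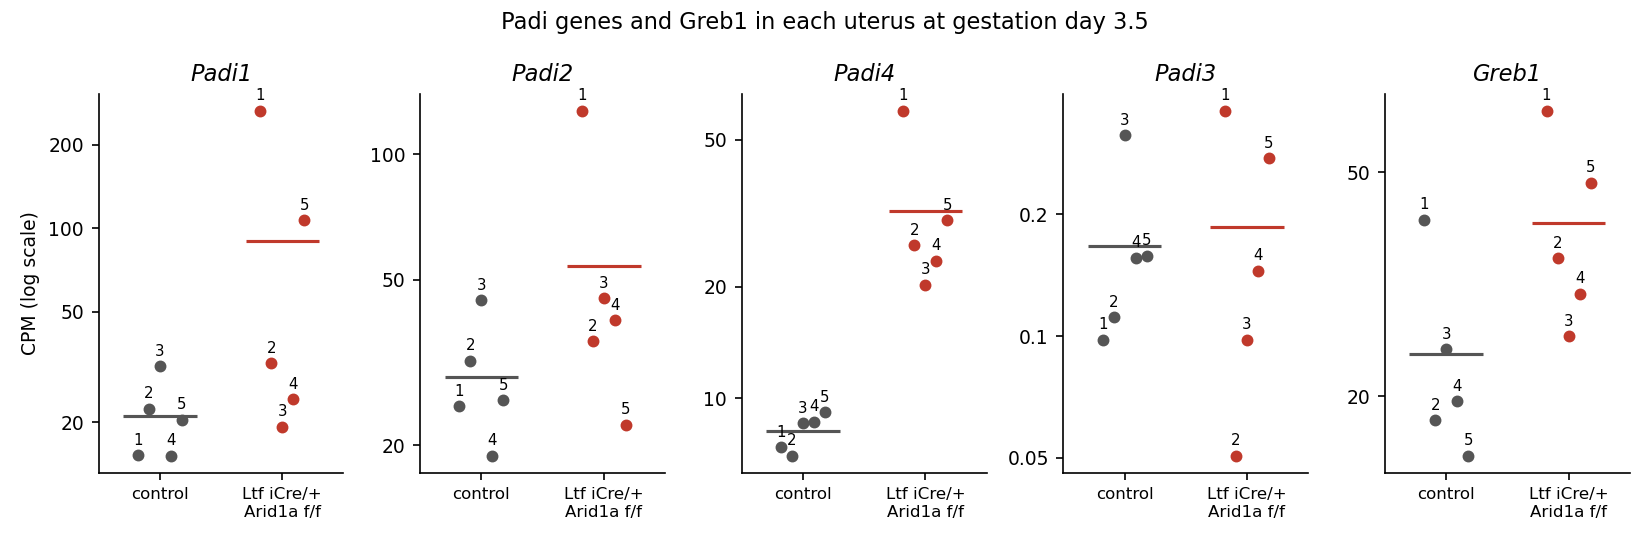
CPM of each gene (log scale, a separate axis for each gene) in 5 control (grey) and 5 knockout (red) uteri, with the uterus number beside each point and the group mean as a line. For *Padi4* all knockout points (20.3 to 59.8 CPM) lie above all control points (7.0 to 9.16 CPM), whereas the groups overlap for the other 4 genes.

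The promoter of *Padi4* is shown because this gene alone passed the test. It spans chr4:140774154-140774453 (minus strand, RefSeq, GRCm38.p6) from 250 bases before to 50 bases after the transcription start. Capitals mark an AP-1 motif (TGACTCA, read as TGAGTCA on the opposite strand) and a single arm of the estrogen response element (GGTCA, read as TGACC on the opposite strand).
*Padi4* promoter: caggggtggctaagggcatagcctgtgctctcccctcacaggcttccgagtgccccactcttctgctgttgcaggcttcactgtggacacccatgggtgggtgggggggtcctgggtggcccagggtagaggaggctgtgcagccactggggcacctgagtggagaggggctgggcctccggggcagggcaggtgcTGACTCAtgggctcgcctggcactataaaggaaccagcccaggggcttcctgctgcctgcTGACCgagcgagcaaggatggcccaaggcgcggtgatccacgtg
The AP-1 letters begin at position -54 and the estrogen response arm at position 7 from the start. Among the 32851 mouse promoters of the same length, 5.20% held the AP-1 motif and 40.5% held the arm. Of the promoters listed for the 5 genes, the AP-1 motif was found in that of *Padi4* only, and the complete element GGTCANNNTGACC, present in 0.0700% of all promoters, was found in none. These matches describe the letters and are not evidence of binding.

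*Padi4* is abundant in neutrophils, so the markers of this cell type were measured in the same uteri. The 12 neutrophil markers (*S100a8*, *S100a9*, *Ly6g*, *Mpo* and others) summed to between 18.0 and 35.7 CPM in controls. Most of the control sum came from *Mmp9*, *Retnlg* and *Csf3r* (means 10.4, 6.16 and 6.11 CPM), so markers of low level weigh little in it. In knockout uteri 1 to 4 the sum of the 12 markers was between 20.4 and 34.1 CPM, inside the control range, and in uterus 5 it was 941 CPM. Single markers of low level did not follow the sum: *Mmp8*, a granule collagenase gene, was above all controls in all 5 knockout uteri (at least 0.110 CPM, against at most 0.0852 CPM) and *Ly6g* in 4 of 5. *Elane*, the neutrophil elastase gene, never exceeded 3 counts, and *Ngp* and *Camp*, which encode granule proteins, averaged 0.0168 and 0.0112 CPM in controls and 1.62 and 0.258 CPM in knockout uteri, where their medians were 0.0145 and 0 CPM (adjusted p = 0.0680 and 0.164 with edgeR). *Padi4* was above all controls in knockout uteri 1 to 4 as well as in uterus 5, and without uterus 5 its log2 fold change was 1.99 (adjusted p = 0.00264 with edgeR). Over all genes 5.19% rose with edgeR. In either direction 26.2% had an unadjusted p under 0.05 and 16.3% passed with DESeq2. Of 11 neutrophil markers tested, 2 (*Ly6g* and *Mmp8*) rose with edgeR, 8 were higher at an unadjusted p under 0.05, and DESeq2 called 1. Without uterus 5 edgeR called 1, and it called 0 without uteri 1 and 5 or when control 2, 3, 4 or 5 was left out. The part of neutrophils in the *Padi4* values was not tested, nor was that of *Arid1a* loss within neutrophils. The 10 macrophage markers summed to between 268 and 555 CPM in controls, to between 427 and 699 CPM in knockout uteri 1 to 4 and to 1447 CPM in uterus 5, and 0 of 10 passed the test with edgeR, against 3 higher at an unadjusted p under 0.05 and 2 higher with DESeq2.

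Epithelial markers moved with the genotype. Their sum over 11 genes was between 866 and 1151 CPM in controls and between 1273 and 2468 CPM in knockout uteri. These ranges did not overlap. Of the 11 genes 7 rose (3 without control 3 and 4 without control 2 or 5), where 5.19% of all genes rose. Among the 7 were *Cdh1* (E-cadherin) and the keratin gene *Krt7* (log2 fold changes 0.82 and 1.83, adjusted p = 0.0106 and 0.0140 with edgeR). For every 100 CPM of these markers *Padi4* stood at 0.645 to 0.988 CPM in controls and at 1.49 to 2.42 CPM in knockout uteri. The difference of 1.15 on the log2 scale had an exact permutation p of 0.00794, and all 5 knockout uteri stayed above all controls. By the same measure, added after seeing the data, *Padi1*, *Padi2*, *Padi3* and *Greb1* differed by 0.69, -0.028, -0.76 and 0.073 on the log2 scale, with exact permutation p of 0.286, 0.944, 0.190 and 0.794. The part of epithelial content in the changes of these 4 genes was not tested further.

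**Figure D2:**
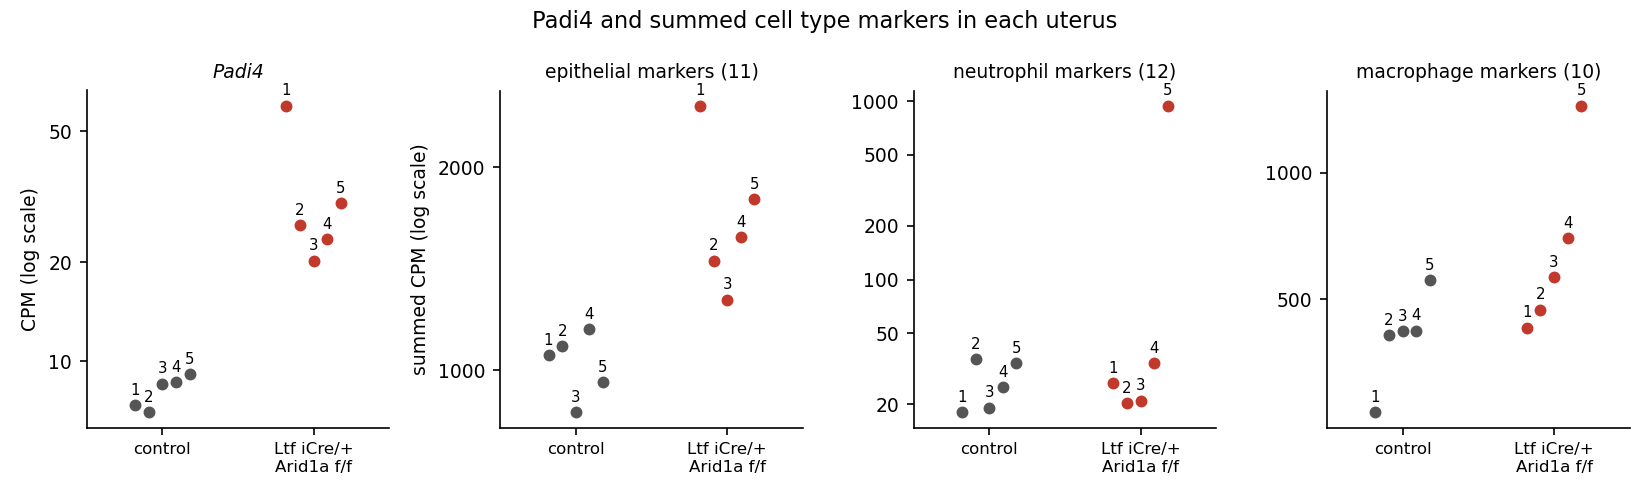
*Padi4* (CPM) and the summed CPM of 11 epithelial, 12 neutrophil and 10 macrophage markers, each on its own log axis, in control (grey) and knockout (red) uteri with the uterus number beside each point. *Padi4* and the epithelial sum are above all controls in all 5 knockout uteri, while the summed neutrophil level leaves the control range in knockout uterus 5 alone (941 CPM).

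*Padi1* (ENSMUSG00000025329, chr4:140812983-140845778, minus strand) had the largest fitted fold change of the 5 genes but did not pass the test. Controls 1 to 5 held 15.2, 22.4, 31.8, 15.2 and 20.5 CPM. knockout uteri 1 to 5 held 266, 32.7, 19.3, 24.2 and 107 CPM. Uteri 1 and 5 were 12.7 and 5.09 times the control mean, uterus 2 was just above the highest control, and uteri 3 and 4 lay within the control range. The log2 fold change was 2.10 (SE 0.66, unadjusted 95% interval 0.64 to 3.55, adjusted p = 0.0699 with edgeR, exact permutation p = 0.0873). DESeq2 gave the same 2.10 with an adjusted p of 0.0240, and under its threshold of 0.05 16.3% of all genes passed. Without knockout uterus 1 the log2 fold change was 1.12, without uterus 3 it was 2.35 and passed (adjusted p = 0.0384 with edgeR), and without uteri 1 and 5 it was 0.27.

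*Padi2* (ENSMUSG00000028927, chr4:140906344-140952586, plus strand), the most widely expressed deiminase, held 24.8, 31.9, 44.5, 18.9 and 25.6 CPM in controls 1 to 5. In knockout uteri 1 to 5 it held 127, 35.5, 45.0, 40.0 and 22.4 CPM. Uterus 1 was 4.37 times the control mean, and the other 4 lay within or next to the control range. The log2 fold change was 0.89 (SE 0.41, 95% interval -0.014 to 1.80, adjusted p = 0.198 with edgeR, exact permutation p = 0.175), and it was 0.29 without uterus 1 and 0.46 without uteri 1 and 5.

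*Padi3* (ENSMUSG00000025328, chr4:140785365-140810648, minus strand), the hair follicle enzyme, was close to the limit of detection. It had 7, 8, 20, 11 and 11 counts in controls 1 to 5 and 23, 3, 6, 10 and 19 counts in knockout uteri 1 to 5, that is 0.167 ± 0.0858 and 0.186 ± 0.129 CPM. The groups overlapped fully. The log2 fold change of 0.16 had a 95% interval from -1.0 to 1.32 (adjusted p = 0.889 with edgeR), an interval that reaches a 2-fold change in both directions.

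The promoters of *Padi1* and *Padi2* are printed for comparison with that of *Padi4*, since the 3 genes were expressed and only 1 passed. They span chr4:140845729-140846028 (minus strand) and chr4:140906110-140906409 (plus strand), from RefSeq on GRCm38.p6, and capitals mark the GC box (GGGCGG, read as CCGCCC on the opposite strand).
*Padi1* promoter: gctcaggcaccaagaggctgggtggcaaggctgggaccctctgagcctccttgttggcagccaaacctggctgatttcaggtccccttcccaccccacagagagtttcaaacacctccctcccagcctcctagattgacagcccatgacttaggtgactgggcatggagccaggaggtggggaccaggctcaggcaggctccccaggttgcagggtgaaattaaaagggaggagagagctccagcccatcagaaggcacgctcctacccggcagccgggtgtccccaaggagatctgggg
*Padi2* promoter: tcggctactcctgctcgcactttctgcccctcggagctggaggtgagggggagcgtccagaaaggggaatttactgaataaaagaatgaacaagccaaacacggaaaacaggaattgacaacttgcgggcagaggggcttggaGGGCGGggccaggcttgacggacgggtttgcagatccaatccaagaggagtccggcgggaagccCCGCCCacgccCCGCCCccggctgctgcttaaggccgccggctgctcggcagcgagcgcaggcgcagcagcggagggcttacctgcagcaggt
The GC box, which occurred in 35.7% of all promoters, was found at positions -107, -43 and -32 of *Padi2* and once in *Padi3*, and none of the 4 motifs searched was found in the *Padi1* window.

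*Greb1* (ENSMUSG00000036523, chr12:16670615-16800886, minus strand) was higher on average in knockout uteri, but the genotypes overlapped and the test was not passed. Controls 1 to 5 held 41.2, 18.1, 24.2, 19.6 and 15.7 CPM. Knockout uteri 1 to 5 held 64.3, 35.1, 25.6, 30.4 and 47.9 CPM. Control 1 stood well above the other 4 controls, and every knockout uterus was above those 4. The means were 23.8 ± 10.2 and 40.7 ± 15.6 CPM (SD, n = 5 each) and the log2 fold change was 0.78 (SE 0.30, unadjusted 95% interval 0.12 to 1.43, adjusted p = 0.127 with edgeR, exact permutation p = 0.0556). Without control 1 it was 1.06 and passed (adjusted p = 0.0327 with edgeR), and it was 0.54 without knockout uterus 1 and 0.35 without knockout uteri 1 and 5 (adjusted p = 0.467 with edgeR).

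*Greb1* has a pair of listed starts, at chr12:16800837-16801136 and chr12:16757190-16757489 (both minus strand, RefSeq, GRCm38.p6), and their promoters are shown because estrogen induction is what the gene is known for. Capitals mark the single estrogen response arm.
*Greb1* upstream promoter: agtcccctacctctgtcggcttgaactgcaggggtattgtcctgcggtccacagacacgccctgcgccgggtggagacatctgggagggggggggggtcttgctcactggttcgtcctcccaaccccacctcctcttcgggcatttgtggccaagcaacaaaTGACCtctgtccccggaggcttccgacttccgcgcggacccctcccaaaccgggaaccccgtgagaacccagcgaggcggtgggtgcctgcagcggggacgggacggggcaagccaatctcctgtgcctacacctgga
*Greb1* downstream promoter: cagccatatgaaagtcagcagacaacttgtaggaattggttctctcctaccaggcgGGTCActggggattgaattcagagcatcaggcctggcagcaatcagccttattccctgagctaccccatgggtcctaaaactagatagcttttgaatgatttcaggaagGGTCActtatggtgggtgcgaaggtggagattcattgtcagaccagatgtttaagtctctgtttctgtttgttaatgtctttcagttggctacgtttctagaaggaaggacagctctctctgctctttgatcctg
The arm begins at position -88 of the upstream window and at positions -194 and -85 of the downstream window, and the complete element was in neither. The counts do not tell which start was used.

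**Figure D3:**
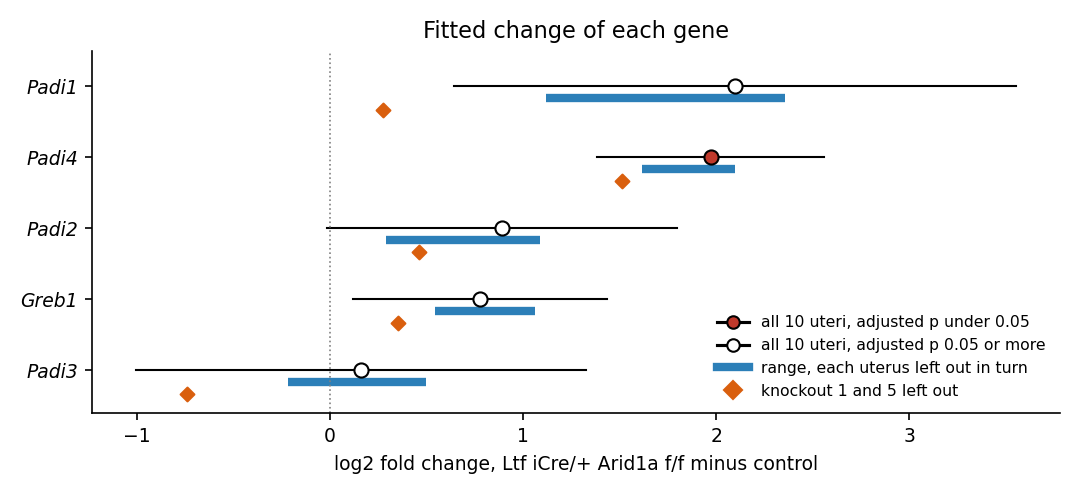
Log2 fold change of each gene (knockout minus control) with all 10 uteri (circle, filled where adjusted p was under 0.05) and its unadjusted 95% interval (line), the range with each uterus left out in turn (blue bar) and the value without knockout uteri 1 and 5 (diamond). *Padi4* stays between 1.51 and 2.10 throughout, whereas *Padi1* drops from 2.10 to 0.27 without the 2 uteri.

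Whether the genes changed unequally was asked with ratios within each uterus, which do not depend on scaling. Of 10 pairs compared, 2 differed after Benjamini-Hochberg adjustment. *Padi4* gained 1.08 on the log2 scale over *Greb1* and *Padi3* lost 1.89 against *Padi4* (exact permutation p = 0.00794 and adjusted p = 0.0397 for both). For *Padi2* against *Padi4* the difference was -1.18 (adjusted p = 0.0529) and for *Padi1* against *Padi3* it was 1.42 (adjusted p = 0.0595), by the same exact test. *Padi1* and *Padi4*, whose fitted changes were alike in size, differed by -0.46 (adjusted p = 0.432 by the exact test). The remaining 5 pairs had adjusted p between 0.349 and 0.833. Both called pairs had an adjusted p under 0.05 in 6 of the 10 analyses that left out a uterus, and without knockout uteri 1 and 5 the differences were of similar size (1.08 and -2.22), a comparison too small for a call to be likely after adjustment (adjusted p = 0.107 and 0.0893 by the exact test).

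Levels between genes were compared as CPM per kb of exon, since the genes differ in length. In controls *Padi2* (5.81 ± 1.95 CPM per kb) and *Padi1* (5.60 ± 1.82) stood highest, followed by *Greb1* (2.48 ± 1.07), *Padi4* (1.68 ± 0.189) and *Padi3* (0.0486 ± 0.0249; SD, n = 5). Neighbours in this order overlapped between uteri, apart from *Padi4* and *Padi3*, whose ranges were separate. In knockout uteri the order was *Padi1* (23.9 ± 27.9 CPM per kb), *Padi2* (10.8 ± 8.34), *Padi4* (6.61 ± 3.31), *Greb1* (4.24 ± 1.63) and *Padi3* (0.0539 ± 0.0373). *Padi4* was above *Greb1* in all 5 knockout uteri and below it in 4 of 5 controls. Per kb of the longest transcript instead of all exons, *Padi4* stood at 2.7 and *Greb1* at 2.95 CPM per kb in controls, where *Padi4* was below *Greb1* in 2 of 5, and it was above *Greb1* in all 5 knockout uteri.

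Per kb of all exons, the 4 *Padi* genes summed to 9.64 to 19.2 CPM per kb in controls, and *Padi1* and *Padi2* made up similar parts of this sum, 38.4 to 44.1% and 39.1 to 46.8%. In knockout uteri 2, 3 and 4 the sum was 21.2, 18.3 and 19.3 CPM per kb, and *Padi4* took 25.3, 22.8 and 25.2% of it, compared with 9.21 to 18.5% in controls. In knockout uteri 1 and 5 the sum was 109 and 39.3 CPM per kb, and *Padi1* took 65.1 and 72.5% of it, while *Padi4* took 11.4 and 15.9%. The uteri with the most *Padi* RNA were therefore those in which *Padi1* predominated. The share of *Padi2* was lowest in uterus 5 (11.4%), where its own level was within the control range.

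**Figure D4:**
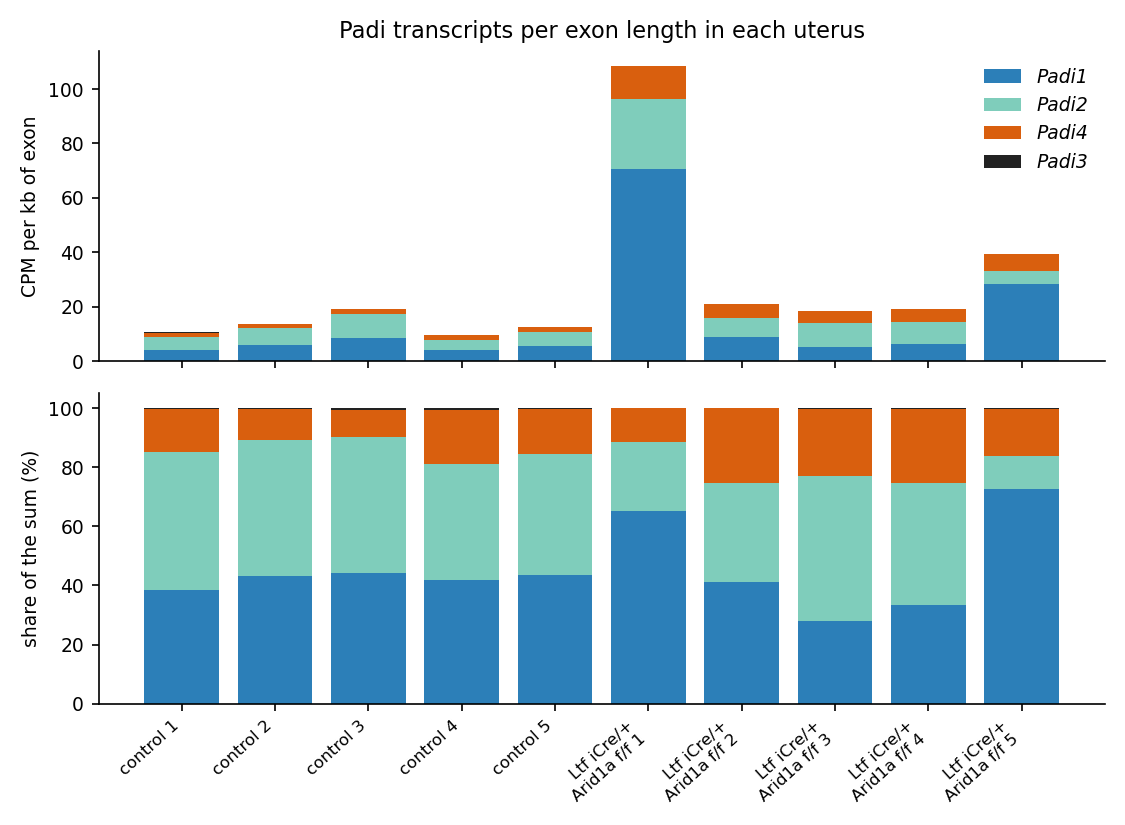
Upper panel, CPM per kb of exon of the *Padi* genes stacked for each uterus, and lower panel, the share of each gene in that sum (%). The sum is 109 CPM per kb in knockout uterus 1 and 39.3 in uterus 5, mostly *Padi1*, against at most 19.2 in controls.

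The *Padi* genes are paralogs that lie side by side in a cluster of 225 kb, so reads could in principle be shared between them. The longest identical stretch of the longest transcripts of *Padi1* and *Padi4* is given here, since these genes had the largest fitted fold changes.
*Padi1* and *Padi4*: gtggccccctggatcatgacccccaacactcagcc
It is 35 bases long, shorter than the reads of 50 bases. Of all 50-base windows of *Padi1* transcripts 0.378% occurred in *Padi3*, of *Padi3* 0.414% occurred in *Padi1*, and of *Padi2* and *Padi4* 0 occurred in another *Padi* gene. An antisense-strand gene, *Gm13032*, shares 1200 exonic bases with *Padi1* and had 7 to 27 counts, and *Gm13031* shares 149 with *Padi2* and had 14 to 33 counts. The annotation of GRCm38 used here also places *Gm48140* antisense to *Greb1* over 736 exonic bases. Whether counting used strand is not given in the sources used here. Reads in the bases shared with *Padi1* and *Padi2* may therefore have been counted for these genes or for none. *Gm13032* and *Gm13031* themselves received at most 27 and 33 counts in a uterus. *Gm48140* was not among the identifiers counted, so no *Greb1* reads were assigned to it. Of the 50-base windows of *Padi1* 29.9% occurred in *Gm13032*, and of *Padi2* 2.08% occurred in *Gm13031*. The effect on the *Padi1* level per kb and on the *Padi* shares was not tested. *Padi4* overlaps no other annotated exon.

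The cluster lies 6.97 Mb from *Arid1a* on chromosome 4. Within 500 kb of it 28 other genes were tested and 3 passed, which is close to the 9.7% of all genes. These were *Fam131c* (log2 fold change 2.36, adjusted p = 0.00570 with edgeR), *Gm13074* (0.00313 CPM in controls and 0.226 CPM in knockout uteri, adjusted p = 0.0205 with edgeR) and *Srarp*, which encodes a steroid receptor-associated protein (-1.12, adjusted p = 0.0221 with edgeR).

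The paralogs outside the set were *Padi6*, the oocyte deiminase, and *Greb1l*. *Padi6* had 0, 25, 0, 3 and 4 counts in controls 1 to 5 and 0, 1, 0, 0 and 0 in knockout uteri, so that a fold is not given (adjusted p = 0.0981 with edgeR). *Greb1l* stood at 13.8 ± 4.08 and 23.9 ± 7.95 CPM (log2 fold change 0.79, adjusted p = 0.0987 with edgeR), and 4 of 5 knockout uteri were above all controls.

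The genes whose profile over the 10 uteri was most like each of the 5, measured as the root mean square difference of log2 CPM centred on the control mean among 14546 genes, were picked by rank and are a description. Nearest to *Padi4* were *Gpr39*, a zinc-sensing receptor (0.24), *Pls1*, an actin-bundling protein of microvilli (0.26), and *Tiam1*, an activator of RAC1 (0.28), with log2 fold changes of 1.74, 1.67 and 1.70. Nearest to *Padi1* were *Elf3*, an epithelial ETS transcription factor (0.41), *Galnt3*, which starts mucin-type O-glycosylation (0.45), and *Lrp8*, a reelin receptor (0.48). Nearest to *Greb1* were *Eno1*, a glycolytic enzyme (0.21), *Slit2*, a guidance ligand (0.22), and *Cebpb*, a transcription factor (0.25). Nearest to *Padi2* were *Ppp2r2c* (0.31), *Prr36* (0.43) and the Notch ligand gene *Dll4* (0.44), and nearest to the sparse *Padi3* were *Colca2* (0.34), *Gm43672* (0.40) and *Adgrg6* (0.41). At each of the 3 ranks *Padi1* was the least closely matched of the 5 genes.

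Among receptors of estrogen and progesterone and their cofactors, *Esr2* rose and *Foxa2* fell. These were 2 calls in 12 genes tested, against 9.7% of all genes, with a median log2 fold change of -0.018 compared with 0.03 over all genes. The estrogen receptor gene *Esr1* was at 540 ± 52.8 CPM in controls and 455 ± 116 CPM in knockout uteri (adjusted p = 0.378 with edgeR). The progesterone receptor gene *Pgr* was at 314 ± 57.9 and 339 ± 64.6 CPM (adjusted p = 0.722 with edgeR). *Esr2*, the second estrogen receptor gene, rose from 0.193 ± 0.112 to 2.06 ± 1.32 CPM (log2 fold change 3.40, adjusted p = 0.00273 with edgeR), and *Foxa2*, a gland transcription factor gene, fell from 12.6 ± 1.56 to 5.73 ± 1.69 CPM (adjusted p = 0.00570 with edgeR).

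Among 23 genes of the uterine estrogen response 7 rose and 0 fell with edgeR, where 5.19% of all genes rose and 4.51% fell. A higher fitted level was found for 20 of them and for 52.7% of all genes. Their median log2 fold change was 1.23, compared with 0.03 over all genes. At an unadjusted p under 0.05 there were 13 higher and 2 lower genes (26.2% of all genes in either direction). DESeq2 called 9 higher and 1 lower (16.3% of all genes in either direction). The 4 of smallest p were *Wnt7a*, an epithelial Wnt ligand gene (1.64, adjusted p = 0.00554), *Ltf* itself (7.23, 0.00920), *Lcn2*, the gene of an iron-binding secreted protein (8.60, 0.0139), and *Ramp3*, a receptor-activity modifying protein gene (1.37, 0.0216), all with edgeR. The others were *Muc1*, *Wnt4* and *Mcm2*. *Ltf* carries the Cre insertion in knockouts only and was highest in knockout uterus 5 (2831 CPM). The neutrophil markers also summed highest in that uterus (941 CPM), and their part in the *Ltf* values was not tested. The number of calls in this list was also 7 without knockout uteri 1 and 5, but 3 without control 2, 3 or 5 and 4 without control 4. *Padi4*, at 1.97, was above the median of this list, and *Greb1*, at 0.78, below it. Of 15 genes of the progesterone brake on the epithelial estrogen response, 2 rose (*Fgf9* and *Mcm2*) and 2 fell, where 9.7% of all genes were called. Their median log2 fold change was -0.24. *Mcm2* is also in the estrogen response list, so the progesterone list holds responding genes too and its median has no single direction. These 4 calls became 1 without control 1, 2 or 4, 2 without control 3 or 5 or knockout uterus 1, and 7 with DESeq2. The falls were *Areg*, a progesterone-induced epithelial growth factor gene (8.50 to 0.377 CPM, log2 fold change -4.49, adjusted p = 0.00131 with edgeR), and *Ptch1*, the hedgehog receptor gene (-0.87, adjusted p = 0.0462 with edgeR).

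Among known substrates of the deiminases, 1 of 12 genes tested rose and 2 fell, where 9.7% of all genes were called, with a median log2 fold change of 0.0071. *Mbp*, the myelin basic protein gene, rose from 8.32 ± 1.19 to 19.8 ± 6.12 CPM (adjusted p = 0.00461 with edgeR). The intermediate filament genes *Vim* and *Krt10* fell by 0.94 and 1.36 on the log2 scale (adjusted p = 0.0139 and 0.0258 with edgeR). Of 11 genes of cornified epithelium, the setting in which PADI1 and PADI3 are best known, only *Krt10* passed, and their summed level overlapped between genotypes (8.60 to 34.0 CPM in controls and 9.60 to 17.5 CPM in knockout uteri).

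**Figure D5:**
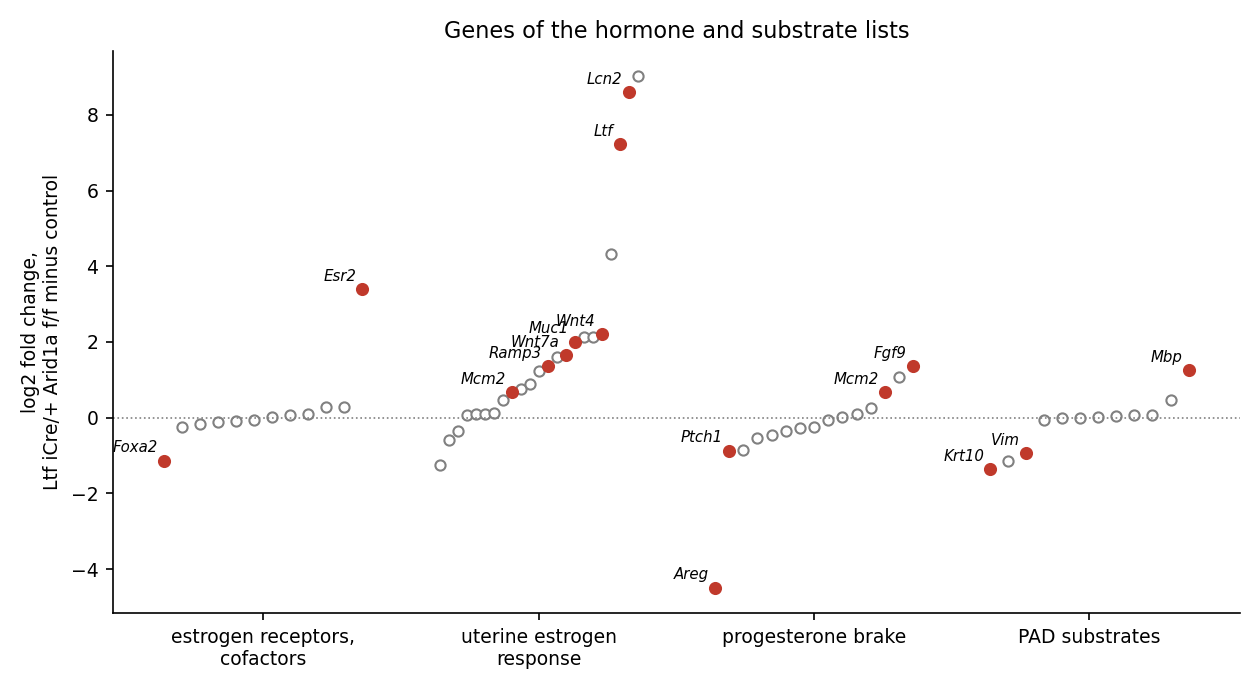
Log2 fold change (knockout minus control) of every tested gene of 4 lists, with genes of adjusted p under 0.05 filled and named. In the uterine estrogen response list 7 of 23 genes are filled and all of these lie above 0, where 5.19% of all tested genes rose. The receptor and substrate lists centre on 0 (medians -0.018 and 0.0071).

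Other tissues that a piece of uterus can hold were checked in the same way. Over all tested genes 5.19% rose and 4.51% fell with edgeR. In either direction 26.2% had an unadjusted p under 0.05 and 16.3% passed with DESeq2. Gland markers fell in 2 of 8 genes (*Foxa2* and *Wfdc3*) with edgeR, with 5 lower at an unadjusted p under 0.05 and 3 with DESeq2. All 8 had a lower fitted level, and edgeR called 5 of 8 without knockout uteri 1 and 5. Stromal markers fell in 2 of 9 (*Vim* and *Dcn*) with edgeR, with 3 lower at an unadjusted p under 0.05 and 3 with DESeq2. Myometrial markers passed in 0 of 8 with edgeR (1 lower at an unadjusted p under 0.05 and 1 with DESeq2). Oviduct and ciliated cell markers fell in 2 of 5 with edgeR, *Ovgp1* and *Dnah5* (3 lower at an unadjusted p under 0.05 and 2 with DESeq2). Their summed levels were 42.6 to 60.6 CPM in controls and 8.64 to 25.8 CPM in knockout uteri. Ovary markers fell in 1 of 4 with edgeR (*Lhcgr*, 0.388 and 0.0357 CPM), with 2 lower at an unadjusted p under 0.05 and 2 with DESeq2. Oocyte markers passed in 0 of 8 with edgeR (2 lower at an unadjusted p under 0.05 and 1 with DESeq2). The oocyte markers summed to at most 3.57 CPM. With each uterus omitted singly the calls numbered 1 to 3 for gland (1 whichever control was omitted), 2 to 3 for stroma, 1 to 2 for oviduct and 0 to 1 for ovary markers. The part of these differences in the values of the 5 genes was not tested.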

How the data were processed

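Reads (50 bp, paired end) were trimmed with cutadapt 1.18 and Trim Galore 0.6.4 and aligned with STAR 2.7.3a to GRCm38, per the submitters' processing notes. The authors deposited raw counts per gene, without normalization. Symbols came from GENCODE M21 (45143 identifiers matched). Genes averaging 1 count or more per library were fitted in edgeR 4.0.16 (R 4.3.3; TMM, quasi-likelihood test for genotype without covariates, Benjamini-Hochberg adjustment over 25146 genes, threshold 0.05), and 26.2% of them had an unadjusted p under 0.05. DESeq2 1.42.0 was the alternative. Log2 CPM used a prior count of 2 and ratios between genes a pseudocount of 0.5. Exact tests were two-sided. Profile likeness was ranked among genes with a mean of at least 100 counts. Steps were checked on simulated counts.

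The 5 genes and all gene lists were chosen with earlier results of these data known. Named genes were the 5, *Arid1a*, *Ltf*, the paralogs, the called genes of each list (values for at most the 4 of smallest p), the 3 nearest profiles and the called neighbours. Other genes (*Esr1*, *Pgr*, *Elane*, *Ngp*, *Camp*, *Mmp9*, *Retnlg*, *Csf3r*) were chosen after their values were seen. Some genes stand in more than 1 list. The labels name each sample a uterus of an adult mouse. They do not say whether extraction or library preparation was done in batches, so p-values measure the spread between these samples only.

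Some items are not reported here.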

Additional observations from a re-analysis of the deposited data

Results flagged for a closer look

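Single uteri far from the other 4 of their genotype were sought in 35 named genes, that is 70 groups, by Dixon's test, and 13 were found. Chance gives about 1 in 20 groups if values are normally distributed. CPM were not log-transformed for this test and every flagged uterus was the highest of its group, so the number found cannot be set against that rate. Among *Ltf* iCre/+ *Arid1a* f/f uteri, uterus 1 stood apart for *Padi2* (127 CPM, the others 22.4 to 45.0), *Padi4* (59.8 CPM, the others 20.3 to 30.3), *Esr2* (4.33 CPM, the others 0.955 to 1.88) and *Mcm2* (120.2 CPM, the others 65.5 to 70.3). Uterus 5 stood apart for *Ltf* (2831 CPM, the others 23.6 to 383) and *Mmp8* (17.2 CPM, the others 0.110 to 0.247), and uterus 2 for *Dnah5* (6.44 CPM, the others 0.810 to 2.28) and *Padi6* (0.0169 CPM, a single count, the others 0). Among controls, uterus 3 stood apart for *Padi3* (0.313 CPM, the others 0.0979 to 0.158) and *Gm13074* (0.0157 CPM, the others 0), uterus 2 for *Padi6* (0.348 CPM, the others 0 to 0.0574), uterus 1 for *Ltf* (11.7 CPM, the others 2.22 to 3.76) and uterus 4 for *Ramp3* (35.1 CPM, the others 25.7 to 27.8). *Padi1* in the knockout group was not among them, since uteri 1 and 5 were both high. For *Padi6* in knockout uteri and *Gm13074* in controls the others were all 0, a setting in which any count is flagged.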

How the results depend on the processing

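*Padi4* kept its direction and its call under every alternative run. Leaving out each uterus in turn gave log2 fold changes of 1.12 to 2.35 for *Padi1*, 0.29 to 1.09 for *Padi2*, -0.21 to 0.50 for *Padi3*, 1.61 to 2.10 for *Padi4* and 0.54 to 1.06 for *Greb1*, called genes of 1204 to 2381 and called list genes of 15 to 32, against 2438 and 29 with all uteri. The differences between genes then ranged from 0.22 to 1.09 (*Padi1* against *Padi2*), 1.15 to 1.70 (*Padi1* against *Padi3*), -0.79 to -0.23 (*Padi1* against *Padi4*), 0.22 to 0.84 (*Padi1* against *Greb1*), 0.44 to 1.17 (*Padi2* against *Padi3*), -1.34 to -0.92 (*Padi2* against *Padi4*), -0.36 to 0.23 (*Padi2* against *Greb1*), -2.09 to -1.58 (*Padi3* against *Padi4*), -1.18 to -0.48 (*Padi3* against *Greb1*) and 0.82 to 1.25 (*Padi4* against *Greb1*). List genes were 15, 15, 18 and 16 without controls 2, 3, 4 and 5, and leaving out a sample lowers the power of the test. DESeq2 called *Padi1* (2.10), 4103 genes in all and 44 list genes. A window of 1000 kb around the *Padi* cluster held 5 called genes of 44 tested, where 9.7% of all genes were called. *Padi3* reversed without knockout uteri 1 and 5 (-0.74) and relative to epithelial markers (-0.76), as did *Padi2* relative to these markers (-0.028). Without knockout uteri 1 and 5 the differences *Padi1* against *Padi2* (-0.22), *Padi1* against *Greb1* (-0.14) and *Padi2* against *Greb1* (0.086) reversed, and *Padi3* against *Padi4* (-2.22) and *Padi4* against *Greb1* (1.08) kept their size without a call. The cause was not tested for these changes.

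Same-numbered uteri did not deviate together (correlations between -0.16 and 0.22). So few uteri cannot exclude a pairing, and the labels give none. With the replicate number as a block the log2 fold changes were 1.34, 0.66, 0.031, 1.86 and 0.78 for *Padi1*, *Padi2*, *Padi3*, *Padi4* and *Greb1*, and the called pair differences kept their size (-1.89 and 1.08). The exact test within 5 blocks cannot reach the threshold, so it says nothing about their stability. The block left 3 calls in the uterine estrogen response list and 1 in the progesterone list, against 7 and 4 without it.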
